A study of Mus musculus with 12 samples.

Results

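The 9 genes described here are Glul, Oat, Rhbg, Slc1a2, Slc13a3, Lhpp, Gulo, Rgn and Lect2, genes of the hepatocytes around the central vein that handle glutamine, ammonium, ornithine, dicarboxylates, ascorbate or phosphate, together with the secreted protein gene Lect2. They were taken by symbol from the 47263 genes of the table, all 9 were found, and all 9 passed the filter on low values. Position in the liver lobule cannot be read from whole-liver RNA, so that the pericentral label was not checked here. RNA was sequenced from whole mouse liver, with 3 libraries in each of 4 groups. WT GFP and WT MET/CAT livers had intact Sirt2, and KO GFP and KO MET/CAT livers had lost Sirt2, an NAD-dependent deacetylase, in hepatocytes. The sources used here name neither the Cre line nor any altered allele of the WT mice. MET/CAT livers received 22.5 µg each of pT3-EF1a plasmids for c-MET, the receptor of hepatocyte growth factor, and for DN90-β-Catenin, a beta-catenin without its N-terminal end, together with 5 µg of the transposase plasmid HSB2. GFP livers received a GFP plasmid, in an amount that the labels leave out. Plasmids were forced into the liver by hydrodynamic tail vein injection at an age of 6 to 8 weeks, which reaches a share of the hepatocytes, and livers were taken 8 weeks later from mice of matched age and unstated sex. A whole liver therefore mixed hepatocytes that took up plasmid with those that did not and with all other liver cells. Groups follow the sample titles, because the treatment field of the labels contradicts them in the KO GFP and WT MET/CAT livers, where it names MET/CAT and GFP. Every direction below rests on the titles. No label says that replicates were different mice, so p-values measure the spread between libraries.

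Liver metabolism is split along the blood flow from the portal to the central vein. Ammonium that escapes the periportal urea cycle is bound to glutamate by glutamine synthetase in a thin ring of pericentral hepatocytes, which also take up glutamate and ammonium and can make glutamate from ornithine. This programme depends on beta-catenin, which is switched on there by Wnt ligands from the central vein endothelium. Glutamine synthetase is a common marker of liver tumours with active beta-catenin.

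The genes lie on 7 chromosomes of the mouse build GRCm38 and all code for proteins. Glul is on chromosome 1 (153899944 to 153909723, plus strand), Slc1a2 on chromosome 2 (102658659 to 102790784, plus strand), Slc13a3 on chromosome 2 (165405028 to 165473230, minus strand) and Rhbg on chromosome 3 (88242874 to 88254709, minus strand). Oat (132557478 to 132576398, minus strand) and Lhpp (132610638 to 132706420, plus strand) lie near each other on chromosome 7 and point away from each other, with 34.24 kb and 2 other genes between them. Lect2 is on chromosome 13 (56542464 to 56548502, minus strand), Gulo on chromosome 14 (65986786 to 66009207, minus strand) and Rgn on chromosome X (20549787 to 20562089, plus strand). Of the exon bases of Rhbg, 61.4% are shared with the predicted gene Gm38392 on the same strand, which held 2 reads in all. Reads over shared exons can be left uncounted as ambiguous, so the level of Rhbg is uncertain. Glul and Slc1a2 share 3.49% and 1.44% of their exon bases with genes on the other strand. Glul also shares 2.80% with Mir8114 on its own strand, which held 0 reads. Per kilobase of exon, the median normalized reads over the 12 libraries were 14360 for Rgn, 8998 for Glul, 4489 for Gulo, 4429 for Oat, 4352 for Lect2, 960 for Lhpp, 166 for Slc1a2, 133 for Slc13a3 and 18.8 for Rhbg. By this measure the enzymes and Lect2 were the abundant transcripts, and the 3 membrane transporters were the rarest. The lengths join all annotated exons of a gene, 13.133 kb for Slc1a2 and 2.416 kb for Lhpp. Undivided, the medians of Slc1a2 and Lhpp were 2184 and 2320 normalized reads. Which exons the liver transcripts hold was not tested.

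RefSeq promoter windows on GRCm38.p6 were matched for 5 of the 9 genes, and those of Rhbg, Lhpp, Gulo and Rgn were not matched. The windows of the 3 genes with the firmest MET/CAT differences and that of Lect2 are shown to let the region next to each start be read beside the values, 250 bases up to the base before the start, 5′ to 3′ on the gene's strand. Capitals mark CTTTGA or, on the other strand, TCAAAG, the core of the sites that TCF/LEF factors, the DNA-binding partners of beta-catenin, are known to recognise. The windows lie at chr1:153899679-153899928 (plus strand) for Glul, chr2:102706188-102706437 (plus strand) for Slc1a2, chr2:165473198-165473447 (minus strand) for Slc13a3 and chr13:56548539-56548788 (minus strand) for Lect2.
Glul: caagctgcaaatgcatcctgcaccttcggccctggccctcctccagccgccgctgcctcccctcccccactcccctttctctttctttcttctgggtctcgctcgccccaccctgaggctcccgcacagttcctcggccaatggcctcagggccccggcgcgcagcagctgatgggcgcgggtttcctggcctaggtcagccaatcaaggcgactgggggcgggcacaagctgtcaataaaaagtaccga
Slc1a2: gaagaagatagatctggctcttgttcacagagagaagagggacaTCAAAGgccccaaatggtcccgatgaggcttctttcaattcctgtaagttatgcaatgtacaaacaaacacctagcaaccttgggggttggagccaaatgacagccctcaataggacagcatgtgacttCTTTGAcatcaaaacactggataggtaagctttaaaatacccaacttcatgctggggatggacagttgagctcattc
Slc13a3: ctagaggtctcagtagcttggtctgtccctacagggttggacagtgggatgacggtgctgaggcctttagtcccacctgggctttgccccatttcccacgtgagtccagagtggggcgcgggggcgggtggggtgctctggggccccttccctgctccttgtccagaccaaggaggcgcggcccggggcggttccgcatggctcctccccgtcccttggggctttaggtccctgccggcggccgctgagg
Lect2: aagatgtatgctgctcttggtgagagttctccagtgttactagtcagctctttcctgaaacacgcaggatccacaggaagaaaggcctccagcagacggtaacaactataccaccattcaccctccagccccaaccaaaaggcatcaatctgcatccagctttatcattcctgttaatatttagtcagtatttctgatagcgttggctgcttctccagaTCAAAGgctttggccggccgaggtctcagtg
Of the 5 windows, 2 held the core, with 2 matches for Slc1a2 (beginning 206 and 77 bases before the start) and 1 for Lect2 (31 bases before it). Neither strand of the Glul, Slc13a3 or Oat window held these letters. The Oat window is not printed, whereas that of Lect2, which limma did not call for MET/CAT, is. The share with the core is therefore to be read over the 5 windows and not over those printed. Among 32851 windows of the same length, 13.8322% held the core on either strand. A longer form, CTTTGAT or ATCAAAG, which contains the core and was searched after the windows had been seen, was found in the Slc1a2 and Lect2 windows and in 3.2054% of all windows. The Slc1a2 window precedes a RefSeq start that lies inside the gene as GENCODE draws it. A match is a description of letters and no measured binding site.

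The libraries held 18208879 to 24352961 recovered reads, each read counting for 0.753 to 1.204 in the normalized values of its library. Sirt2 averaged 824 ± 98.9 in WT GFP and 180 ± 53.5 in KO GFP livers, and 973 ± 83.8 in WT MET/CAT and 228 ± 24.4 in KO MET/CAT livers (normalized reads, SD, n = 3). It fell by 2.22 with GFP and fell by 2.09 with MET/CAT on the log2 scale (limma adjusted p = 0.00189 and 0.00394). The call in GFP livers ended in a fit of these 6 libraries alone (adjusted p = 0.101), and that in MET/CAT livers ended without KO MET/CAT replicate 3 (−2.005, adjusted p = 0.0524). Neither Met (−0.41 for MET/CAT against GFP averaged over genotypes, adjusted p = 0.205) nor Ctnnb1 (−0.12, adjusted p = 0.837) was called, and the labels do not name the species of the plasmid cDNAs. KO GFP replicate 3 stood apart from the other 11 libraries on the first principal component (−89.0 against −33.2 to 52.8), and values of the 9 genes that moved by over 1.5 times without it are given both ways. All 12 hepatocyte markers had reads in every group.

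MET/CAT livers held more transcript than GFP livers of 5 of the 9 genes. Averaged over both genotypes, Glul, Slc1a2, Slc13a3, Lhpp and Gulo rose, by 1.62-fold for Gulo to 2.91-fold for Glul. Oat, Rhbg, Lect2 and Rgn had higher values that did not pass the test, and Rgn differed least. Thus 5 of 9 genes were called higher and none lower (limma, Benjamini-Hochberg adjusted p under 0.05 over 13871 genes), where 2.4% of all genes tested were called higher, 1.4% lower and 3.8% in either direction. The 9 genes were chosen with earlier results of these data known. Counts of called or non-overlapping genes among them are therefore no test of the set. The median difference was 0.94 for the 9 genes and 0.02 for all genes, on the log2(value + 1) scale that all log2 values here use. Taken alone, WT livers had 1 call, Slc13a3, with 0.339% of all genes called (0.209% higher, 0.13% lower), and KO livers had 1 call, Glul, with 1.25% of all genes called (0.858% higher, 0.397% lower). In whole liver, more cells of a type and more RNA per cell cannot be told apart. Scaling all libraries to the same total moved the median of all genes to −0.14 and the split of calls from 333 higher and 194 lower to 224 higher and 424 lower. With that scaling 4 of the 9 genes were called, all higher, Gulo being lost (0.53, adjusted p = 0.0777).

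**Figure D1:**
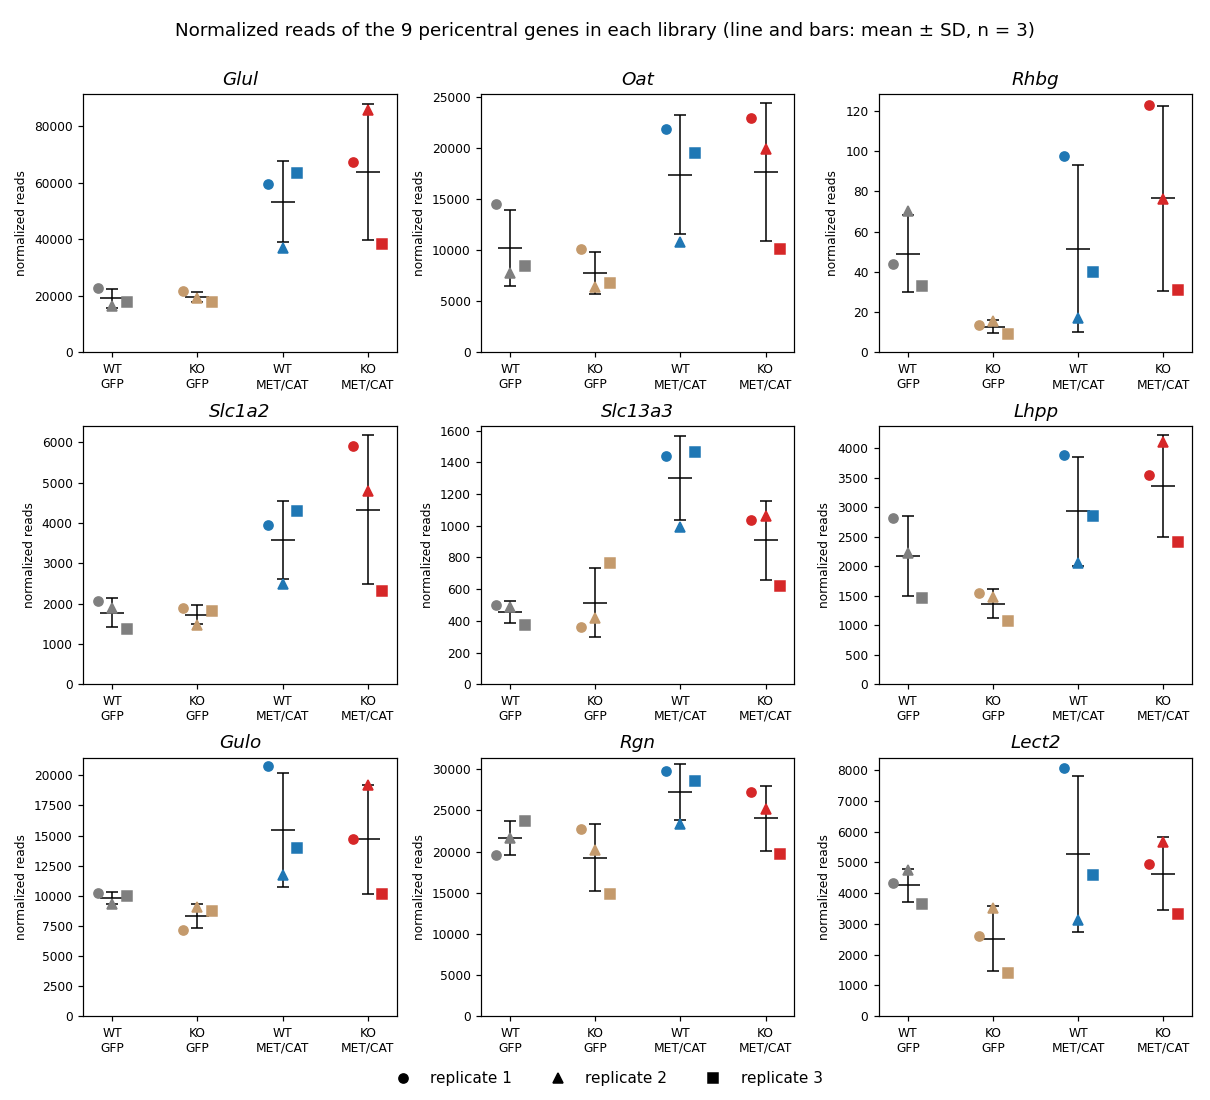
Normalized reads (vertical axes, each from 0) of the 9 genes in the 12 libraries, by group on the horizontal axes, with points shaped by replicate number and black lines for the mean ± SD (n = 3). All MET/CAT points of Glul, between 36972 and 85906, lie above all GFP points, between 16514 and 22829, and WT MET/CAT replicate 2 and KO MET/CAT replicate 3 are the lowest points of their groups in all 9 panels.

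Glul encodes glutamine synthetase, which joins ammonium to glutamate. In GFP livers it had 22829, 16514 and 17994 normalized reads (WT) and 21664, 19194 and 17955 (KO). In MET/CAT livers it had 59596, 36972 and 63360 (WT) and 67363, 85906 and 38360 (KO). Every MET/CAT library was above every GFP library, in a comparison of 6 against 6 in which 1.61% of all genes were higher without overlap. The averaged difference was 1.54 (SE 0.21, limma adjusted p = 0.00179), and it passed the test with each of the 12 libraries left out in turn (1.42 to 1.71). The difference was 1.63 in KO livers (SE 0.30, adjusted p = 0.0222) and 1.45 in WT livers (SE 0.30, adjusted p = 0.053), where edgeR (1.48, adjusted p = 0.0431) and DESeq2 (1.48, adjusted p = 0.000136) called it on recovered reads. The KO call held in 1 of 6 fits that left out a library, the fit without KO MET/CAT replicate 3, and ended without KO GFP replicate 3 (1.57, adjusted p = 0.0698). In order of mean level the groups were KO MET/CAT (63876 ± 23964), WT MET/CAT (53310 ± 14273), KO GFP (19604 ± 1888) and WT GFP (19112 ± 3302), and within each plasmid the neighbours overlapped.

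Slc1a2 encodes a sodium-driven glutamate carrier. Normalized reads were 2056, 1890.2 and 1363 in WT GFP, 1890.5, 1468 and 1823 in KO GFP, 3950.1, 2480.1 and 4308 in WT MET/CAT and 5905, 4789 and 2312 in KO MET/CAT livers. As for Glul, no MET/CAT library was as low as any GFP library. The averaged difference was 1.11 (SE 0.22, limma adjusted p = 0.0144) and passed the test in all 12 fits that left out a library. By genotype it was 0.998 for WT (adjusted p = 0.165) and 1.23 for KO (adjusted p = 0.0737), and neither passed with limma. On recovered reads DESeq2 called the KO difference (1.28, adjusted p = 0.00529) and edgeR did not (1.26, adjusted p = 0.069).

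Oat encodes the mitochondrial ornithine aminotransferase, which turns ornithine into a precursor of glutamate. Its normalized reads were 14551, 7784 and 8469 in WT GFP, 10096, 6430.1 and 6782 in KO GFP, 21915, 10801 and 19514 in WT MET/CAT and 22988, 19910 and 10105 in KO MET/CAT livers. WT GFP replicate 1 was above WT MET/CAT replicate 2, so that the WT groups overlapped, while the KO groups did not, KO MET/CAT replicate 3 being above KO GFP replicate 1 by a narrow margin. The averaged difference was 0.94 (SE 0.25, limma adjusted p = 0.0558), and the values by genotype were 0.76 for WT (adjusted p = 0.343) and 1.13 for KO (adjusted p = 0.12). It passed without WT MET/CAT replicate 2 (1.10, adjusted p = 0.0313) and without KO MET/CAT replicate 3 (1.12, adjusted p = 0.0222), and on recovered reads with edgeR (0.94, adjusted p = 0.0461) and DESeq2 (0.95, adjusted p = 0.00441). DESeq2 also called the KO difference (1.14, adjusted p = 0.0291).

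Rhbg encodes an ammonium channel of the Rh family. The libraries held 44, 62 and 38 reads in WT GFP, 18, 16 and 10 in KO GFP, 98, 16 and 36 in WT MET/CAT and 102, 73 and 29 in KO MET/CAT livers. Summed by group these were 144 (95% Poisson interval 121 to 170), 44 (32.0 to 59.1), 150 (127 to 176) and 204 (177 to 234) reads, with intervals that cover counting error only. As normalized reads the KO GFP libraries, at 13.6, 15.4 and 9.04, were the lowest of all 12, and WT MET/CAT replicate 2 came next at 16.9. The MET/CAT difference was 2.33 in KO livers (SE 0.61, limma adjusted p = 0.0789) and −0.19 in WT livers (SE 0.61, adjusted p = 0.906), and 1.07 on average (SE 0.43, adjusted p = 0.209). In WT livers the sign turned with edgeR and DESeq2 and without WT MET/CAT replicate 2 (0.42) or WT GFP replicate 2 (0.10). DESeq2 on recovered reads called the KO difference (2.55, adjusted p = 0.00303) and the average (1.30, adjusted p = 0.0375).

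Slc13a3 encodes a sodium-coupled carrier of dicarboxylates such as succinate and alpha-ketoglutarate. Normalized reads were 499, 487 and 376 in WT GFP, 363, 415 and 765 in KO GFP, 1442, 994 and 1467 in WT MET/CAT and 1037, 1063 and 621 in KO MET/CAT livers. WT MET/CAT livers were the highest group, and all 3 lay above all WT GFP libraries. In KO livers the highest GFP library, replicate 3, lay above the lowest MET/CAT library, also replicate 3. The averaged difference was 1.18 (SE 0.21, limma adjusted p = 0.007) and passed in all 12 fits that left out a library. It was 1.51 in WT livers (SE 0.29, adjusted p = 0.0499), at the threshold, and that call held in 2 of 6 fits that left out a library, those without WT MET/CAT replicate 1 or 2. In KO livers it was 0.86 (adjusted p = 0.144), and 1.18 without KO GFP replicate 3 (adjusted p = 0.0779).

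Lhpp, which lies near Oat, encodes a phosphatase of phosphohistidine and inorganic pyrophosphate. Its normalized reads were 2813, 2228 and 1468 in WT GFP, 1537, 1480.2 and 1079 in KO GFP, 3881, 2048 and 2856 in WT MET/CAT and 3549, 4109 and 2412 in KO MET/CAT livers. The KO groups did not overlap and the WT groups did. The averaged difference was 0.86 (SE 0.21, limma adjusted p = 0.0342), with 0.43 for WT (adjusted p = 0.519) and 1.28 for KO (adjusted p = 0.0507). On recovered reads the KO difference was called by edgeR (1.24, adjusted p = 0.0494) and DESeq2 (1.25, adjusted p = 0.00269). The averaged call held in 3 of 12 fits that left out a library, those without WT GFP replicate 1, WT MET/CAT replicate 2 or KO MET/CAT replicate 3, and the adjusted p over the 12 ran from 0.0239 to 0.0845. With library quality weights the value in WT livers was −0.04 and the average 0.49 (adjusted p = 0.0571).

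Gulo and Rgn act in the making of ascorbate, Rgn (regucalcin) as the lactonase that closes the ring of gulonate and Gulo as the oxidase of the last step. Gulo had normalized reads of 10192, 9296 and 9960.0 in WT GFP, 7173, 9062 and 8732 in KO GFP, 20799, 11698 and 13991 in WT MET/CAT and 14718, 19167 and 10128 in KO MET/CAT livers. Within each genotype all MET/CAT libraries lay above all GFP libraries, though KO MET/CAT replicate 3 was below WT GFP replicate 1. The averaged difference was 0.70 (SE 0.18, limma adjusted p = 0.049), with 0.62 in WT and 0.78 in KO livers (adjusted p = 0.286 and 0.13). This call sat at the threshold and held in 2 of 12 fits that left out a library, those without WT MET/CAT replicate 2 or KO MET/CAT replicate 3. Rgn, also known as a calcium-binding protein, had 19623, 21668 and 23690 normalized reads in WT GFP, 22750, 20173 and 14788 in KO GFP, 29797, 23401 and 28541 in WT MET/CAT and 27263, 25160 and 19648 in KO MET/CAT livers. These groups overlapped in both genotypes, and the difference was 0.33 in WT, in KO and on average (adjusted p = 0.524, 0.417 and 0.293). The KO value depended on scaling and on KO GFP replicate 3, with 0.0018 after quantile normalization, 0.11 with equal totals and 0.15 without that library, and the average was 0.17 and 0.16 with these scalings. Its 95% interval for the average, −0.01 to 0.67, stays under 1.

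Lect2 encodes a protein that hepatocytes secrete into the blood and that was named for attracting neutrophils. Its normalized reads were 4339, 4743 and 3660.4 in WT GFP, 2606, 3512 and 1406 in KO GFP, 8075, 3134 and 4594 in WT MET/CAT and 4939.6, 5645 and 3320.3 in KO MET/CAT livers. The highest and the lowest of all 12 libraries were WT MET/CAT replicate 1 and KO GFP replicate 3. MET/CAT and GFP overlapped in both genotypes, with a difference of 0.21 in WT (SE 0.36, limma adjusted p = 0.822), 0.95 in KO (SE 0.36, adjusted p = 0.171) and 0.58 on average (SE 0.25, adjusted p = 0.244). Without KO GFP replicate 3 the KO value was 0.58 (adjusted p = 0.507), and in WT livers the sign turned without WT MET/CAT replicate 1 (−0.15).

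**Figure D2:**
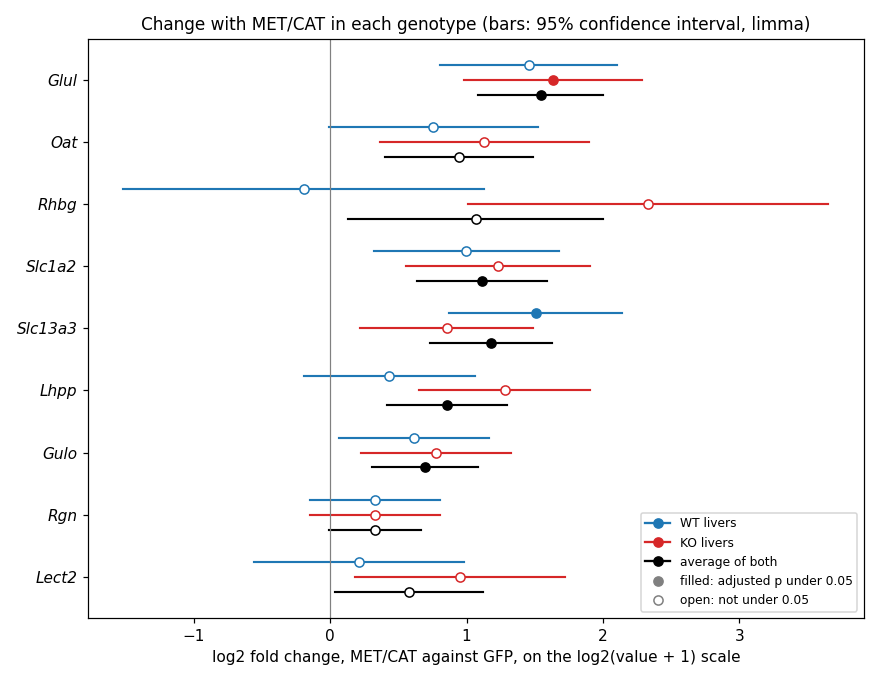
Log2 fold change of MET/CAT against GFP (horizontal axis, log2(value + 1) scale) for each of the 9 genes (vertical axis) in WT livers, KO livers and averaged, with 95% confidence intervals from limma as bars and filled points where the adjusted p was under 0.05. The 5 filled black points run from 0.70 for Gulo to 1.54 for Glul, and the bars of Rhbg are the widest.

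Counted by overlap, all MET/CAT libraries were above all GFP libraries for 4 of 9 genes in WT livers (Glul, Slc1a2, Slc13a3 and Gulo), where 10.5% of all genes were, and for 6 of 9 in KO livers (Glul, Oat, Rhbg, Slc1a2, Lhpp and Gulo), where 14.4% of all genes were. Over both genotypes together this held for Glul and Slc1a2. None of the 9 genes was lower in MET/CAT livers without overlap, as 10.3% of all genes were in WT livers, 10.7% in KO livers and 0.872% over both.

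The 9 genes shared their low libraries within the MET/CAT groups. WT MET/CAT replicate 2 and KO MET/CAT replicate 3 were the lowest of their group for all 9 genes, whereas for all genes tested they were the lowest for 31.151% and 28.527%, and both at once for 10.511%. The 9 genes were not chosen independently of each other, and this count has no test. Glul, for example, was 36972 in WT MET/CAT replicate 2 against 59596 and 63360 in replicates 1 and 3 of that group. The mitochondrial share of reads was 5.83% in that library against 3.36% and 4.41% in the others of its group, and 2.11% in KO MET/CAT replicate 3 against 3.03% and 2.21%. The mean log2 deviation of the 12 hepatocyte markers was −0.10 in WT MET/CAT replicate 2 against 0.24 and 0.22, and 0.04 in KO MET/CAT replicate 3 against 0.14 and −0.07. The 25 other pericentral genes were also lowest in both libraries (0.01 against 0.43 and 0.19, and −0.23 against 0.02 and 0.16). So were 12 other secreted liver proteins (−0.42 against 0.07 and 0.29, and 0.18 against 0.52 and 0.40). The 23 periportal genes were lowest in the first (−0.16 against −0.03 and 0.13) and highest in the second (0.25 against −0.12 and −0.03). Of 9 measured neutrophil markers, 7 rose with MET/CAT on average (summed normalized reads 160 to 849 over both GFP groups and 1036 to 12355 over both MET/CAT groups, with no read for Mmp8 in WT GFP and for Cxcr2 and Ly6g in KO GFP livers). In WT MET/CAT replicate 2 and KO MET/CAT replicate 3 the neutrophil sums were 7129 and 5112, the middle value of each group. By mean log2 deviation, WT MET/CAT replicate 2 was the highest of its group for these markers (1.92 against 0.30 and 1.67). KO MET/CAT replicate 3 was again in the middle (1.23 against 3.03 and 0.21). The part of these shares and markers in the levels of the 9 genes was not tested.

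**Figure D3:**
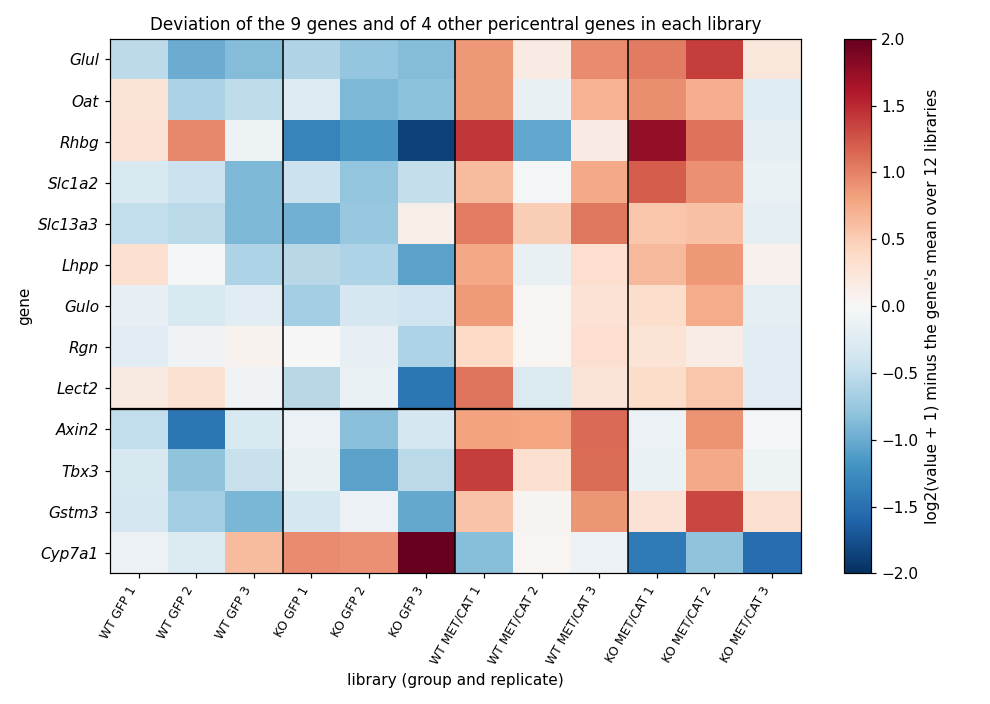
Log2(value + 1) of each gene minus its mean over the 12 libraries (colour, ending at −2 and 2) for the 9 genes (rows above the line) and for Axin2, Tbx3, Gstm3 and Cyp7a1 (rows below it), with libraries as columns. Within the MET/CAT columns the rows above the line are palest or blue in WT MET/CAT replicate 2 and KO MET/CAT replicate 3, and the Cyp7a1 row runs from 8181 normalized reads in KO GFP replicate 3 to 477 in KO MET/CAT replicate 3.

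In GFP livers, 2 of the 9 genes had higher values in KO than in WT livers. The others had lower values, among them Rhbg, Lect2, Lhpp, Oat and Gulo, and none of the 9 passed the test. The Glul groups overlapped. None of the 9 genes was called for KO against WT in GFP livers (limma, with 3 at an unadjusted p under 0.05, edgeR 0 and DESeq2 0), where 0.00721% of all genes, Sirt2, were called. Of all genes, 15.5% were at an unadjusted p under 0.05 (limma) in this comparison. Glul differed by 0.05 (95% interval −0.61 to 0.70), and by 0.11 without KO GFP replicate 3. Rhbg differed by −1.83 (SE 0.61, unadjusted p = 0.01, adjusted p = 0.287), and its values of 43.9, 70.3 and 32.9 in WT and 13.6, 15.4 and 9.04 in KO livers did not overlap. Lect2 differed by −0.85 (adjusted p = 0.297) and Gulo by −0.24 (adjusted p = 0.64), also without overlap, and Lhpp by −0.64 (adjusted p = 0.318) with overlap. Oat differed by −0.37 (limma adjusted p = 0.603), with overlap too. In all, 3 of 9 genes were lower without overlap, where 13% of all genes were, and none was higher, where 9.15% were. Without KO GFP replicate 3 the values were −1.63 for Rhbg, −0.48 for Lect2, −0.47 for Lhpp and −0.28 for Gulo. With library quality weights these 4 genes were called lower, Rhbg by −1.64 (adjusted p = 0.00286), Lhpp by −0.80 (adjusted p = 0.00363), Lect2 by −0.70 (adjusted p = 0.00713) and Gulo by −0.44 (adjusted p = 0.0263), in a fit that called 2641 of all genes lower and 1934 higher, while quantile normalization gave 0.03 for Gulo. All 14 macrophage markers had lower values in KO than in WT GFP livers (limma called 0, with 13 at an unadjusted p under 0.05, edgeR 0 and DESeq2 4), with summed normalized reads of 2040.3 to 6409 against 10230 to 13406. Their part in these values was not tested.

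In MET/CAT livers, too, none of the 9 genes was called for KO against WT (limma, with 0 at an unadjusted p under 0.05, edgeR 0 and DESeq2 0), where 0.00721% of all genes were called. An unadjusted p under 0.05 (limma) was reached by 7.76% of all genes. Glul differed by 0.22 (95% interval −0.43 to 0.87), Rhbg by 0.69 (adjusted p = 0.78) and Slc13a3 by −0.54 (adjusted p = 0.671). Single libraries moved these values. Rhbg was 0.080 and 0.25 without WT MET/CAT replicate 2 or KO MET/CAT replicate 1, and 1.31 and 1.23 without WT MET/CAT replicate 1 or KO MET/CAT replicate 3. Slc13a3 was −0.29 without KO MET/CAT replicate 3, and Glul ran from −0.029 without KO MET/CAT replicate 2 to 0.55 without KO MET/CAT replicate 3. The KO and WT libraries overlapped for all 9 genes, where 6.82% of all genes were higher and 7.01% lower in KO livers without overlap.

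Whether the plasmid effect differed with genotype was tested as an interaction. None of the 9 genes passed (limma, with 1 at an unadjusted p under 0.05, edgeR 0 and DESeq2 0), and 0% of all genes did. For the interaction 15.5% of all genes were at an unadjusted p under 0.05 (limma). Rhbg had the largest value of the 9, 2.53 (SE 0.87, unadjusted p = 0.0117, adjusted p = 0.265), followed by Lhpp with 0.85 (adjusted p = 0.336) and Lect2 with 0.74 (adjusted p = 0.48), and Slc13a3 ran the other way with −0.65 (adjusted p = 0.448). Glul was at 0.18, with a 95% interval of −0.74 to 1.10. Without KO GFP replicate 3 the values were 2.32 for Rhbg, 0.68 for Lhpp, 0.37 for Lect2, −0.33 for Slc13a3 and 0.12 for Glul. Slc13a3 was −0.40 without KO MET/CAT replicate 3, and Lect2 was 0.42 without WT MET/CAT replicate 2. All 14 macrophage markers had positive interaction values (median 1.59, limma called 0, with 9 at an unadjusted p under 0.05, edgeR 0 and DESeq2 2), and their part in these values was not tested. With library quality weights Rhbg was called (2.44, adjusted p = 0.0347), in a fit that called 1374 genes. The interaction, the KO plasmid effect and the genotype effect in GFP livers share the 3 KO GFP libraries, in which Rhbg was low, so that for Rhbg the values 2.53, 2.33 and −1.83 are not separate observations.

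Among 25 other pericentral genes, 3 rose and 1 fell with MET/CAT on average (limma, with 10 at an unadjusted p under 0.05, edgeR 4 and DESeq2 7). In the averaged comparison 17.9% of all genes were at an unadjusted p under 0.05 (limma). Their median difference was 0.07, and 14 of the 25 had positive values. Limma called no other gene of this list, which holds further beta-catenin targets. The risers were the beta-catenin targets Axin2 (1.17, limma adjusted p = 0.024) and Tbx3 (1.10, adjusted p = 0.0175) and the glutathione transferase Gstm3 (1.15, adjusted p = 0.0123). Axin2 is a brake on the pathway and Tbx3 a transcription factor. Limma called none of these 3 in either genotype alone. Axin2 averaged 57.1 (WT) and 69.2 (KO) normalized reads with GFP and 174 (WT) and 115 (KO) with MET/CAT. Its KO groups overlapped, at 50.91 to 84.32 (GFP) and 84.29 to 171.57 (MET/CAT). Tbx3 averaged 304 (WT) and 297 (KO) with GFP and 865 (WT) and 507 (KO) with MET/CAT. Cyp7a1, the rate-limiting enzyme of bile acid synthesis, fell by 1.56 (adjusted p = 0.00875), and fell by 2.73 in KO livers alone (adjusted p = 0.00741), or fell by 2.18 without KO GFP replicate 3 (adjusted p = 0.0134). Its normalized reads were 1269, 1142 and 2135 in WT GFP, 2642, 2604 and 8181 in KO GFP, 758, 1408 and 1273 in WT MET/CAT and 513, 783 and 477 in KO MET/CAT livers, so that KO GFP livers were the highest group and KO MET/CAT livers the lowest. The Axin2 call held in 8 of 12 fits that left out a library, ending without WT GFP replicate 2, KO GFP replicate 2, WT MET/CAT replicate 3 or KO MET/CAT replicate 2, and ended with equal totals (1.01, adjusted p = 0.0617), while those of Tbx3, Gstm3 and Cyp7a1 held in 12 of 12. Cyp2e1, a pericentral cytochrome P450 named here for its role, averaged 96749 (WT) and 87630 (KO) normalized reads with GFP and 87765 (WT) and 91275 (KO) with MET/CAT, a range smaller than the SD within WT MET/CAT livers (17383). Of 6 central vein endothelium genes, among them the Wnt ligands Wnt2 and Wnt9b and the Wnt enhancer Rspo3, none was called (limma, with 1 at an unadjusted p under 0.05, edgeR 0 and DESeq2 1), and those with the smallest p were Thbd (1.14, adjusted p = 0.0879) and Wnt2 (0.33, adjusted p = 0.623).

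Of 23 periportal genes none was called in the averaged comparison (limma, with 3 at an unadjusted p under 0.05, edgeR 0 and DESeq2 0), and the median was 0.11. Of all genes, 17.9% were at an unadjusted p under 0.05 there. The smallest p were those of Sdsl (0.73, adjusted p = 0.122), a serine dehydratase, and the urea cycle enzyme Asl (0.44, adjusted p = 0.139). Of 33 measured genes for glutamine, ammonium, ornithine and proline, 2 rose and none fell, with a median of −0.01. They were Slc25a15 (0.50, limma adjusted p = 0.0336), the mitochondrial carrier of ornithine, and Slc1a4 (1.27, adjusted p = 0.0368), a carrier of alanine, serine and cysteine. Their calls held in 3 and 5 of 12 fits that left out a library, and both ended with equal totals (adjusted p = 0.19 and 0.0803). Liver glutaminase Gls2, the periportal counterpart of Glul, named here for that role, averaged 8157 ± 696 (WT) and 6879 ± 1065 (KO) normalized reads with GFP and 7906 ± 1113 (WT) and 6335 ± 1099 (KO) with MET/CAT (SD, n = 3).

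Other lists tied to the 9 genes held few calls. Their averaged counts at an unadjusted p under 0.05 stand beside 17.9% of all genes (limma). None of 7 measured dicarboxylate carriers was called (limma, with 1 at an unadjusted p under 0.05, edgeR 0 and DESeq2 0). Of 10 measured genes around ascorbate, 1 fell, Ugp2 (−0.67, limma adjusted p = 0.0169), which makes UDP-glucose at the head of the pathway, while Gulo at its end rose. Of 4 measured genes for histidine phosphorylation and pyrophosphate, 1 rose, the pyrophosphatase Ppa1 (0.58, adjusted p = 0.0171), which was also called in KO livers alone (0.77, adjusted p = 0.0449, in 0 of 6 fits that left out a library). None of 12 other secreted liver proteins was called (limma, with 1 at an unadjusted p under 0.05, edgeR 0 and DESeq2 0), nor was any of 12 hepatocyte markers, whose median was 0.23 (3 at an unadjusted p under 0.05, edgeR 0 and DESeq2 3). On average, Marco and Laptm5 of 14 macrophage and Sox9 of 7 cholangiocyte markers rose and Pcna of 11 cell cycle genes fell. Of 14 macrophage markers, 3 were positive in WT (median −0.24) and 14 in KO livers (median 1.23). Of 11 cell cycle genes, 7 were positive in WT (median 0.35) and 2 in KO livers (median −0.78). Of 7 cholangiocyte markers, 4 were positive in WT (median 0.08) and 7 in KO livers (median 1.20). In either genotype alone limma called only Marco and Laptm5 of these lists, in KO livers. In GFP livers all 11 cell cycle genes had higher values in KO than in WT (limma called 0). Limma and edgeR called 0 of 8 lymphocyte, 10 endothelial and 10 stellate cell markers on average (0, 3 and 4 at an unadjusted p under 0.05, and 0, 0 and 2 with DESeq2).

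Among the genes whose profile over the 12 libraries came nearest to that of Glul, by the root mean square difference of centred log2 values, were Isyna1 (0.284), which makes inositol phosphate, Gstm3 (0.332), the circadian factor Clock (0.378) and the annexin Anxa2 (0.391). The median gene of 12691 compared was at 0.938, and a flat profile would be at 0.839. Of the 9 genes, which were left out of that ranking, Slc1a2 was nearest to Glul at 0.298, and the closest pairs of all were Oat with Slc1a2 (0.273) and Oat with Lhpp (0.285). Rhbg and Slc13a3 were the pair farthest apart (1.03). Isyna1 averaged 170 ± 60.6 in WT GFP, 191 ± 51.0 in KO GFP, 518 ± 138 in WT MET/CAT and 460.2 ± 141 in KO MET/CAT livers (normalized reads, SD, n = 3). These distances describe 12 libraries that share their groups and carry no test.

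**Figure D4:**
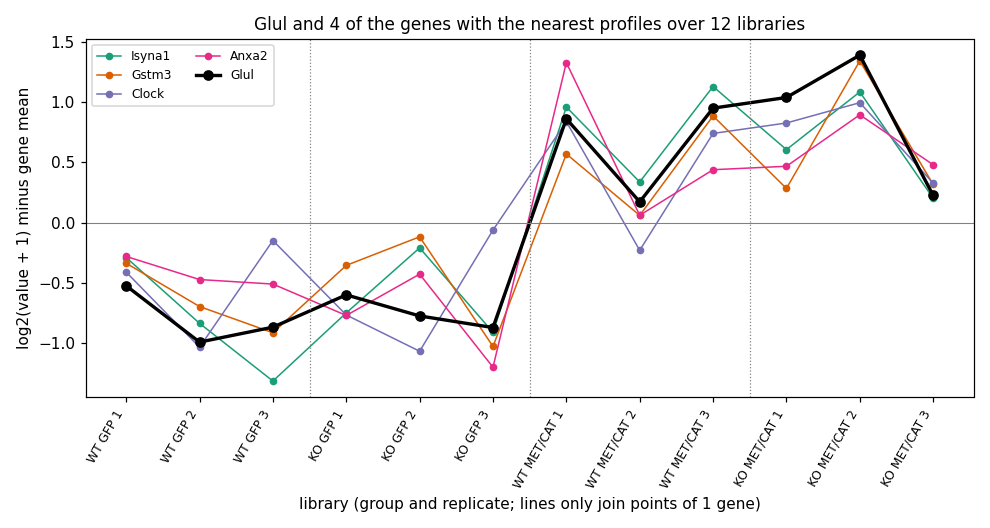
Log2(value + 1) minus the gene's own mean (vertical axis) in the 12 libraries (horizontal axis) for Glul (black) and 4 of the genes nearest to it. Glul runs from −0.99 in WT GFP replicate 2 to 1.39 in KO MET/CAT replicate 2, and in WT MET/CAT replicate 2 and KO MET/CAT replicate 3, where Glul is at 0.17 and 0.22, all 4 and 2 of them (Isyna1 and Clock) are at the lowest of their group.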

How the data were processed

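RNA sequencing libraries of whole mouse liver were used, 12 in all and 3 per group. HISAT2 2.0.4, HTSeq 0.11.2 and GRCm38 were used per the submitters' processing notes, while the sources used here name neither the normalization tool nor the strand setting. The authors deposited a normalized signal for each gene. Within a library every value was a whole multiple of 1 step (0.753 to 1.204, with 100% of values whole within 0.01 reads), so that reads could be recovered (18208879 to 24352961 per library). These normalized values are no raw counts, so limma 3.58.1 (R 4.3.3, mean-variance trend) was fitted on log2(value + 1) to 4 group means over all 12 libraries, for the 13871 genes that reached 10 normalized reads in 3 or more libraries. Calls are at a Benjamini-Hochberg adjusted p under 0.05 over all genes, with no fold minimum, and log2 values understate the change of low genes. Replicates of a group differed by more than counting error.

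The 9 genes and the gene lists were chosen with earlier results of these data known. Named were the 9 genes in every library, Sirt2, Met and Ctnnb1, per list up to 3 called genes with the smallest p (or the 2 smallest p where none was called), and the 5 profiles nearest to Glul, 1 of which is not reported here. Axin2, the called pericentral gene with the largest p, Cyp2e1 and Gls2 fall outside this rule and were named after their values were seen. Alternatives were pseudocounts of 0.5 and 8, other filters, quantile normalization, equal totals, library quality weights, edgeR 4.0.16 and DESeq2 1.42.0 on recovered reads, the replicate number as a block, fits of only the compared groups, and each library left out in turn. Positions came from GENCODE M21 and promoter windows from RefSeq. The limma script was tested on simulated data.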

Additional observations from a re-analysis of the deposited data

How the results depend on the processing

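In the averaged comparison 4 to 7 of the 9 genes were called under the other settings (5 in the fit as reported) and 3 to 6 with 1 library left out. The count of 1 called gene in WT livers became 0 with a pseudocount of 0.5, without the filter on low values, with the filter at 50 and with the replicate block, 2 with quantile normalization, library quality weights, edgeR and DESeq2, and 0 to 2 with 1 library left out. With equal totals it stayed at 1, but the called gene was Glul (limma adjusted p = 0.0458) and not Slc13a3 (adjusted p = 0.0517). The count of 1 in KO livers became 2 with a pseudocount of 8, the filter at 50, quantile normalization, edgeR and the replicate block, 6 with library quality weights, 5 with DESeq2, 0 in a fit of the KO libraries alone and 0 to 3 with 1 library left out. Of all genes, the fits with 2 calls called 179, 192 (of 10613), 198, 202 and 187 in that order. Weights called 1635 and DESeq2 928 (6.69%), against 174 of 13871 (1.25%) as reported. Library quality weights gave 4 calls instead of 0 for KO against WT in GFP livers and 1 instead of 0 for the interaction. With 1 library left out the other 3 counts were 0. The cause of these changes was not tested, beyond the smaller number of libraries or the other set of genes tested.

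Signs turned at small values, and the cause was not tested. Quantile normalization gave 0.029 for Gulo (KO against WT, GFP) and -0.073 for Glul (interaction). Weights gave -0.040 for Lhpp and -0.046 for Lect2 (MET/CAT, WT), and -0.045 for Glul (KO against WT, GFP). Rhbg (MET/CAT, WT) was 0.062 with edgeR and 0.059 with DESeq2. With 1 library left out, the values ran from -0.82 to 0.42 for Rhbg and from -0.15 to 0.53 for Lect2 (both MET/CAT, WT), and for Glul from -0.052 to 0.18 (KO against WT, GFP), from -0.029 to 0.55 (KO against WT, MET/CAT) and from -0.075 to 0.51 (interaction).

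Over all genes, 47, 174 and 527 were called for MET/CAT in WT, in KO and on average, 1 and 1 for KO against WT with GFP and with MET/CAT, and 0 for the interaction. DESeq2 called 567, 928, 1139, 118, 34 and 155, and library quality weights 2615, 1635, 2377, 4575, 2 and 1374. In WT livers quantile normalization gave 81, equal totals 71 and edgeR 73, and the KO libraries alone gave 86. The replicate block gave 7 for KO against WT with GFP and 2 for the interaction, and the GFP libraries alone gave 0. With 1 library left out the 6 counts ran from 3 to 372, 48 to 132, 277 to 720, 1 to 10, 0 to 12 and 0 to 4.

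Replicate numbers are not said to pair libraries, and same-numbered libraries of different groups correlated from -0.20 to 0.28 in their deviations, with 5 of 12 libraries closest to their own number. Each group of 3 libraries holds every number, so some such matches arise without any pairing, and this count was not tested. With the replicate block 0, 2 and 5 of the 9 genes were called for MET/CAT in WT, in KO and on average, and 0 in the other comparisons. Rhbg, with 44 reads summed over the KO GFP libraries, is the gene whose depth limits it most.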
